A study of Homo sapiens with 24 samples.

Results

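AGR2 and 9 regulators and products of luminal secretory cells were followed across breast cancer cell lines in which the lactate carrier MCT1 was targeted by RNA interference or by a drug. The genes were taken as a named list: AGR2, the transcription factors GATA3, FOXA1, ELF3, ELF5, SPDEF and EHF, the mucin MUC1 and the trefoil peptides TFF1 and TFF3. AGR2 was chosen by its log2 difference between MCT1 shRNA and scramble shRNA, the largest on these arrays, so its values in that comparison are a description and carry no test. All 10 genes were measured, by 28 of the 54675 probe sets of the array, among 19775 named genes.

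The 24 Affymetrix arrays fell into 8 groups of 3. In SUM149PT cells, a line from an inflammatory breast carcinoma, lentivirus carried either MCT1 shRNA or a scramble shRNA, and both groups had passed puromycin at 2 µg/ml for 5 days. In SUM149PT, HS578T and SUM159PT cells, 24 h of AZD3965, an MCT1 inhibitor, was set against DMSO, its vehicle, and no virus is named for these cells. The labels do not say how many hairpins were used, or whether the 3 arrays of a group came from separate cultures, so p-values may measure technical spread alone. They also give HS578T cells a different medium (DMEM) from the others (F12 with insulin, hydrocortisone and EGF), so medium and line cannot be told apart in contrasts with HS578T.

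AGR2 is a member of the protein disulfide isomerase family that resides in the endoplasmic reticulum, where it helps secreted proteins fold, and mice without it fail to make intestinal mucin. In the mammary gland, GATA3 and FOXA1 keep luminal cells in their fate and open chromatin for the oestrogen receptor, and both are high in luminal tumours. ELF3, ELF5, SPDEF and EHF are transcription factors of the ETS family found chiefly in epithelia. SPDEF drives secretory and goblet cell programmes, and ELF5 the milk-secreting alveolar lineage.

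The upstream sequences of AGR2, EHF and ELF3 are shown because AGR2 and EHF had the largest shRNA differences in the list, in opposite directions, and because ELF3 had the highest correlation with AGR2 among the other genes of the list over all 24 arrays. They are the 250 bases before the annotated start in RefSeq on GRCh38.p14, where 8 of the 10 genes had a window. Both strands were searched, and capitals mark matches to AGATAA, read by GATA factors, to TGTTTAC, read by forkhead factors, and to TATAAA, the core of the TATA box. GGAAGT (ETS factors), TGANTCA (AP-1) and the endoplasmic reticulum stress element were also searched, with no match in these windows, and 19.5%, 6.57% and 0.074% of all windows hold them.
AGR2, minus strand, chr7:16805000-16805249, before the gene at chr7:16791811-16804999: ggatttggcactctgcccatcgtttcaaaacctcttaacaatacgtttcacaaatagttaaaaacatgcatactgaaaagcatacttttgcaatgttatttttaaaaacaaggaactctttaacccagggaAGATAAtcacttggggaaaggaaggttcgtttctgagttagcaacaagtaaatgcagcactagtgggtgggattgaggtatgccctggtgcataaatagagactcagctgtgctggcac
EHF, later start, plus strand, chr11:34632316-34632565, inside the gene at chr11:34621093-34663288: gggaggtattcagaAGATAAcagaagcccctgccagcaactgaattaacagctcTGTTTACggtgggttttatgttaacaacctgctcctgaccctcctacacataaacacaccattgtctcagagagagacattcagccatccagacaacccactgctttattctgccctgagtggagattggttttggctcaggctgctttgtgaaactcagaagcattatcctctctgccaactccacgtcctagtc
EHF, earlier start, plus strand, chr11:34624007-34624256: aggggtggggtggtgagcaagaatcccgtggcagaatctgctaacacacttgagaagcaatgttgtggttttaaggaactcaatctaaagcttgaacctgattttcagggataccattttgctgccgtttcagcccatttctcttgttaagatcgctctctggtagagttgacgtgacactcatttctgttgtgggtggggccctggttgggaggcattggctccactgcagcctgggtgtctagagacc
ELF3, plus strand, chr1:202010337-202010586, before the gene at chr1:202010587-202017183: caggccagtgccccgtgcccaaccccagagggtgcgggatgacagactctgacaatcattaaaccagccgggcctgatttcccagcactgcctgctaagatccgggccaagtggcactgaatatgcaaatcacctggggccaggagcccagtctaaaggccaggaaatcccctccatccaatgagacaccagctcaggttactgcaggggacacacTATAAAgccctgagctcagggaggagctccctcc
Both EHF windows, the earlier one too, lie inside the gene, so the sequence before its first base was not shown or searched. The AGR2 window held AGATAA from base -119 to base -114, counted from the start. The later EHF window held AGATAA from base -236 to -231 and TGTTTAC from base -196 to -190, the earlier one held no match, and ELF3 had TATAAA from base -34 to -29. These motifs are common: of 35116 windows of this length, 9.17% held AGATAA, 2.98% TGTTTAC and 10.7% TATAAA. A match describes letters in a window and is not a shown binding site.

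Levels are MAS5 signals, the array software's linear brightness units, and differences are on the scale of log2(signal + 16). A gene was represented by its brightest probe set and tested where its mean over all arrays reached a filter level equal to a signal of 31.7. The filter left 9 of the 10 genes and 18 of their 28 probe sets, with ELF5 under it. AGR2 and EHF passed it only through the SUM149PT arrays, the group in which they are high. Calls are limma's moderated test with a Benjamini-Hochberg adjusted p under 0.05 over all 14141 genes tested. Standard errors (SE) and confidence intervals come from that fit. They use 1 spread per gene shared over all 24 arrays, not that of the groups compared alone. For AGR2, 12 arrays reached the filter level, and on the dimmer ones the offset shrinks the spread.

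One array stood apart. In scramble array 3 the actin 3'/5' signal ratio, a gauge of RNA integrity, was 53.8, against 1.2 to 2.14 on the other arrays, and the GAPDH ratio was 2.35, against 0.798 to 0.948. Results of the shRNA comparison are therefore given with and without it. The epithelial markers EPCAM and CDH1 averaged 14970 and 8772 in SUM149PT cells under DMSO, but 12.5 and 4.26 in HS578T and 54.6 and 3.53 in SUM159PT, so CDH1 was near 0 in both of those lines and EPCAM near the filter level or under it. The summed signal of 5 leukocyte markers ran from 117.6 to 672.7 over all arrays, with PTPRC averaging at most 43.8 in any group and CD14 442 in SUM149PT cells with AZD3965 and 389 with DMSO. That of 4 adipocyte markers ran from 15.5 to 231, with ADIPOQ averaging at most 15.1 and FABP4 167.6 in SUM159PT cells with AZD3965. Their part in the results was not tested. In bulk RNA, fewer cells expressing a gene and less RNA per cell cannot be told apart.

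AGR2 had signals of 3626, 3772 and 4006 in the MCT1 shRNA arrays, against 275, 254 and 299 in the scramble arrays. The groups were apart with no overlap, and the spread within each was small beside the gap. The log2 difference was 3.71 ± 0.16 (SE, n = 3 each), a 13.1-fold rise, first among all genes tested, with MGP next at 2.45 and CH25H at 2.45. Without scramble array 3 the difference was 3.77. A second, dimmer AGR2 probe set read 142, 137 and 148 in MCT1 shRNA arrays and 10.9, 27.0 and 27.5 in scramble arrays, a difference of 2.10. Both probe sets gave separate groups, and their mean gave a difference of 2.91.

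Of the other 8 genes tested, GATA3 rose, EHF fell and 6 did not pass, against 14.9% of all genes called in this comparison, 7.22% higher and 7.64% lower. The same 2 genes were called without scramble array 3, against 12.3% of all genes. In simulated data with 200 of 14141 genes changed, 44% of genes changed 1.5-fold and 82% of genes changed 2-fold were recovered. In the real comparison 2101 genes were called, which sets another p cutoff, so these shares are not its own. By probe set, 2 of the other 17 tested were called higher and 1 lower, against 12.1% of all probe sets, 6.48% higher and 5.67% lower.

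GATA3, the zinc finger factor of luminal fate, read 2873, 2651 and 2995 in MCT1 shRNA arrays, against 2066, 2102 and 1486 in scramble arrays. Every MCT1 shRNA array was above every scramble array, and the lowest value was that of scramble array 3. The log2 difference was 0.60 ± 0.12 (SE), a 1.52-fold rise with adjusted p = 0.00143 in limma. Leaving out scramble array 3 reduced it to 0.44 (adjusted p = 0.0114). The 2 dimmer GATA3 probe sets did not pass, with differences of 0.41 (adjusted p = 0.312 over 27128 probe sets) and 0.51 (adjusted p = 0.156), the first with overlapping groups.

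EHF, an ETS factor of epithelia, fell. Its brightest probe set read 234, 205 and 243 in MCT1 shRNA arrays, against 525, 612 and 529 in scramble arrays. The groups did not overlap, and the log2 difference was -1.23 ± 0.23 (SE), 0.426 of the scramble level, with adjusted p = 6.64e-04 in limma. Without scramble array 3 it was -1.26 (adjusted p = 0.00224). The call rests on that probe set, and it was lost when 1 was added to signals in place of 16 (-1.29, adjusted p = 0.126). The other 5 EHF probe sets were under the filter, overlapped between the groups and differed by -0.42 to 0.53, and with the mean of all 6 probe sets the difference was -0.09 (adjusted p = 0.811).

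ELF3, another epithelial ETS factor, read 507, 430 and 516 in MCT1 shRNA arrays, against 308, 293 and 261 in scramble arrays. The groups did not overlap, yet the gene was not called in the fit of all 24 arrays. The log2 difference was 0.72 ± 0.33 (SE, adjusted p = 0.157 in limma), and when only the arrays of the 2 groups compared were fitted the adjusted p was 0.0195. Leaving out scramble array 3 gave 0.66 (adjusted p = 0.305). All 3 ELF3 probe sets had every MCT1 shRNA array above every scramble array, which 12.2% of all named probe sets showed. One of the dimmer ones was called among probe sets, at 178, 159 and 129 in MCT1 shRNA arrays against 73.9, 84.7 and 48.3 in scramble arrays, a difference of 1.03 (adjusted p = 0.00641). Without scramble array 3, the lowest of those, it was 0.84 (adjusted p = 0.0473).

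MUC1, the transmembrane mucin of the luminal surface, read 454, 566 and 581.8 in MCT1 shRNA arrays, against 395, 408 and 449 in scramble arrays. The groups were adjacent without overlap, and the difference of 0.34 ± 0.15 (SE) did not pass (adjusted p = 0.127 in limma), nor without scramble array 3 (0.39, adjusted p = 0.126). The 2 dimmer MUC1 probe sets overlapped between groups. Leaving AGR2 aside, GATA3, ELF3, EHF and MUC1 had groups without overlap at their brightest probe set, 4 of the 8 other genes tested, which 29.8% of all genes did, 14.6% with MCT1 shRNA above and 15.2% with it below.

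FOXA1, the pioneer factor of oestrogen receptor binding, read 82.8, 105 and 142 in MCT1 shRNA arrays and 160, 71.8 and 141 in scramble arrays. These overlapped, and the 95% confidence interval of the log2 difference ran from -0.70 to 0.46. SPDEF overlapped likewise at all 5 of its probe sets, and its brightest had an interval from -0.95 to 0.86, which holds the size of the GATA3 difference. TFF1 read 47.7, 53.6 and 19.6 in MCT1 shRNA arrays and 56.5, 42.7 and 61.6 in scramble arrays. TFF3 read 23.4, 35.1 and 31.1 in MCT1 shRNA arrays and 23.0, 53.9 and 32.4 in scramble arrays. Both trefoil genes straddled the filter level and overlapped, with differences of -0.35 ± 0.34 and -0.16 ± 0.33 (SE). ELF5 stayed under the filter, its brighter probe set reading 28.9, 20.9 and 9.72 in MCT1 shRNA arrays and 11.9, 22.1 and 20.0 in scramble arrays.

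**Figure D1:**
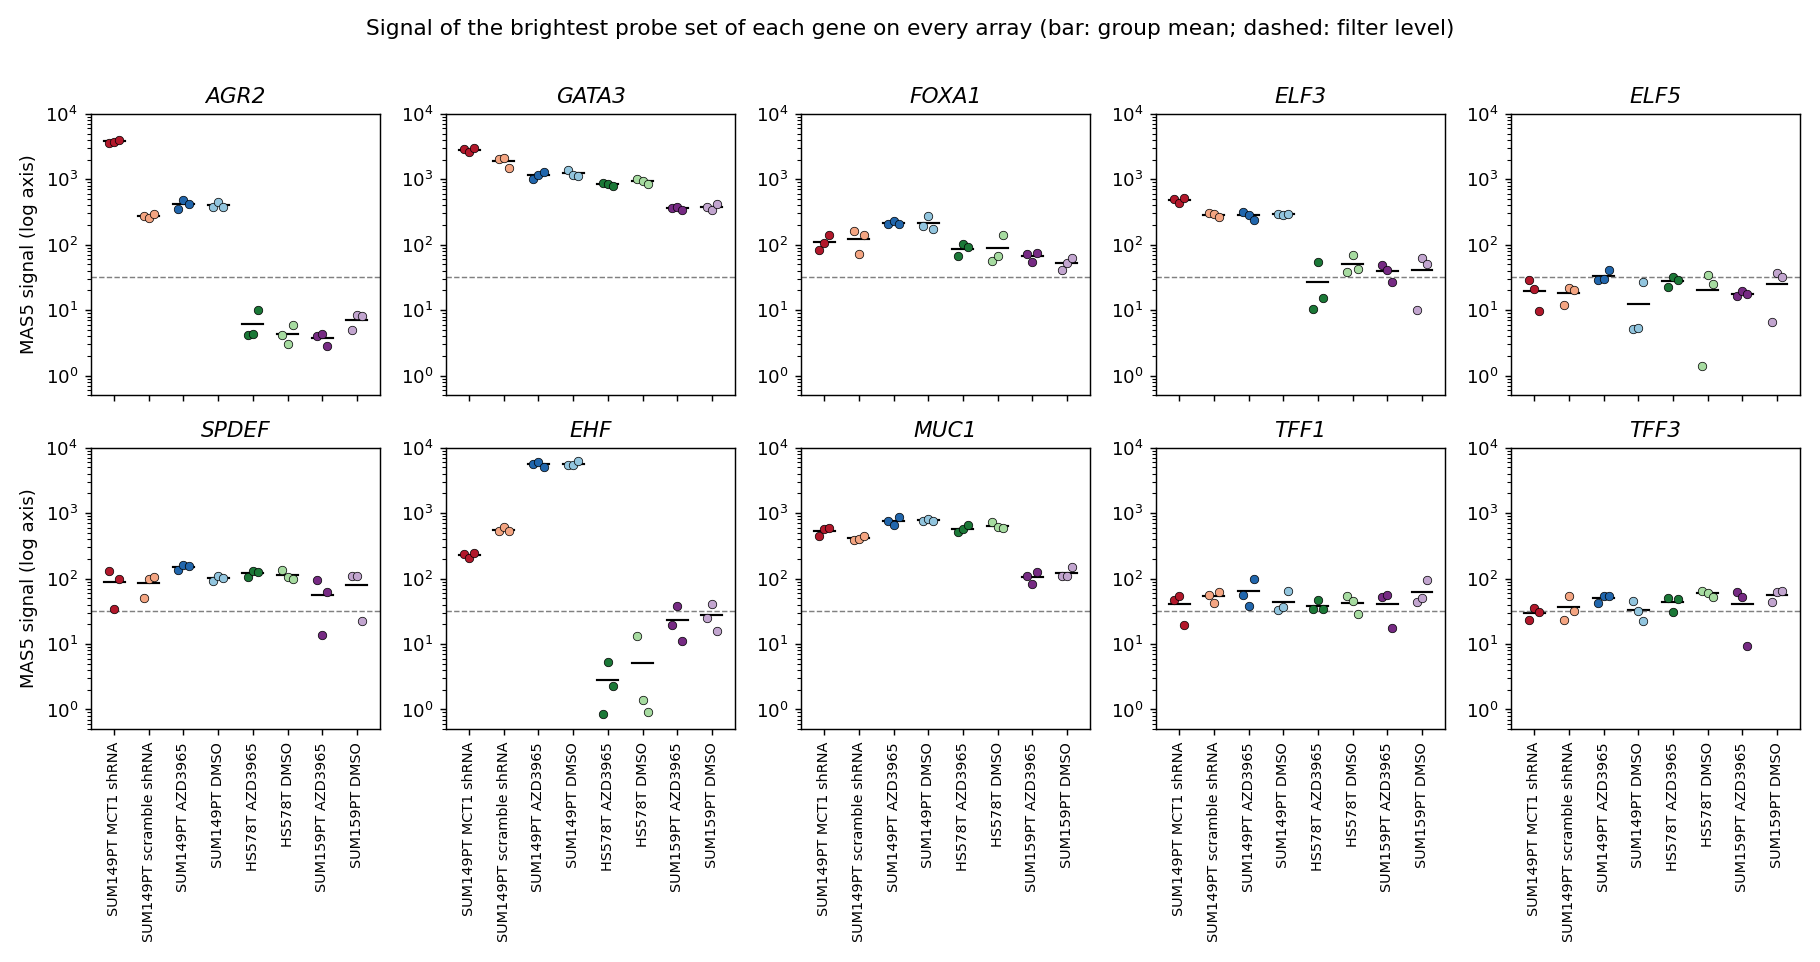
MAS5 signal on a log axis of the brightest probe set of each of the 10 genes, 1 point per array, in 8 groups of 3 arrays, with bars at the group means and a dashed line at the filter level of 31.7. AGR2 stands at 3626 to 4006 in MCT1 shRNA arrays against 254 to 299 in scramble arrays, while EHF is highest in the SUM149PT arrays of the inhibitor experiment.

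**Figure D2:**
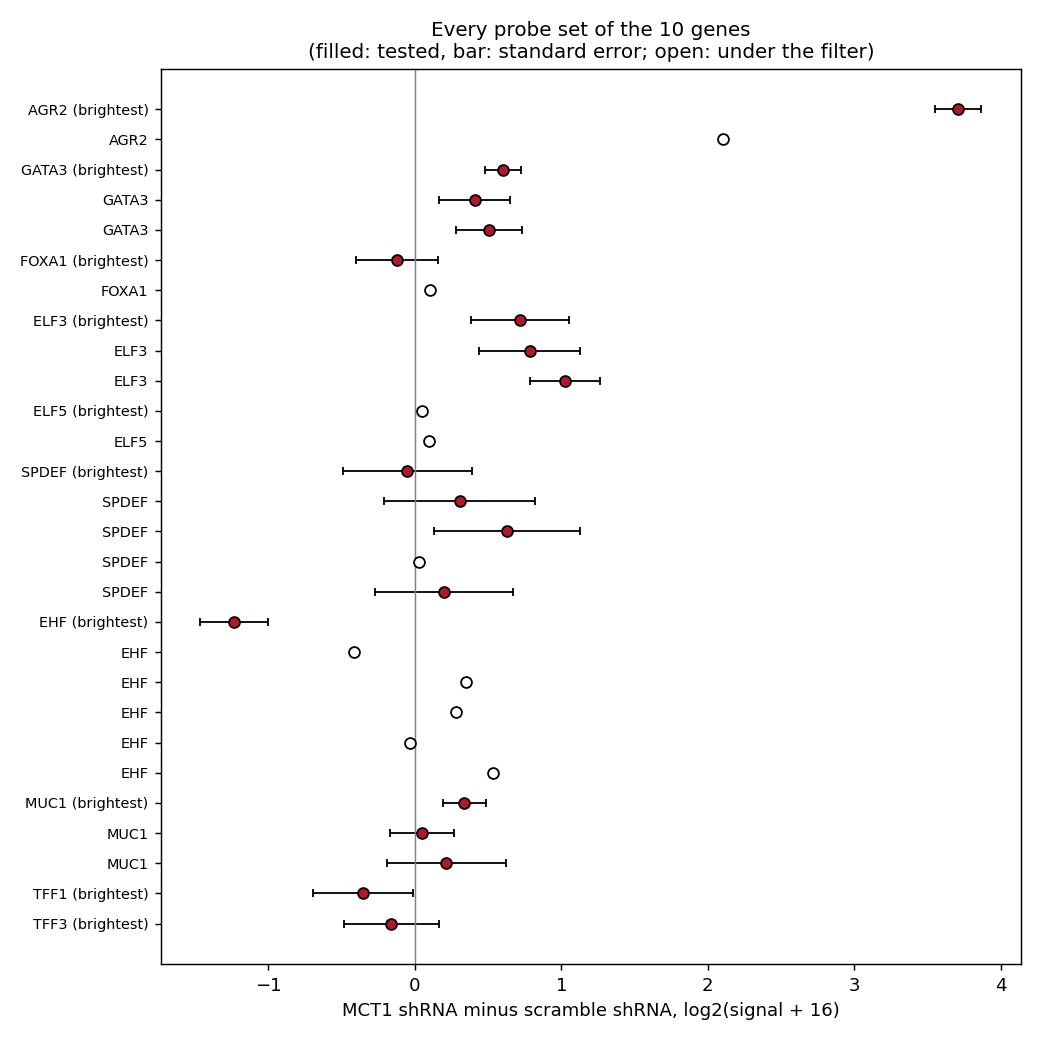
Difference of MCT1 shRNA minus scramble shRNA on the log2(signal + 16) scale for all 28 probe sets, filled where tested, with standard errors, and open where under the filter. Both AGR2 probe sets lie right of 2, the 3 GATA3 and 3 ELF3 probe sets lie right of 0, and EHF's brightest probe set lies at -1.23 while its 5 dimmer ones lie between -0.42 and 0.53.

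EHF differed far more between the 2 experiments than between the shRNA groups. In SUM149PT cells its brightest probe set read 525, 612 and 529 in scramble arrays, against 5358, 5510 and 6215 in DMSO arrays. The log2 difference of scramble minus DMSO was -3.32, with the mean on that scale 9.998-fold higher under DMSO, and all 6 EHF probe sets had every scramble array below every DMSO array, which 16.9% of all named probe sets showed. Of all 14141 genes, 16 were at least as low in scramble against DMSO, and 0.163% were past 8-fold lower. These 2 control groups differ in experiment, virus and puromycin selection, which cannot be told apart, so this is a description with no test.

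The other genes differed less between the 2 SUM149PT control groups. Scramble minus DMSO was -0.51 for AGR2, -0.75 for FOXA1, -0.86 for MUC1 and 0.60 for GATA3, each without overlap, where 20.3% of genes were below without overlap and 21.8% above. FOXA1 and MUC1, like EHF, thus differed more between these controls than between the shRNA groups, where they differed by -0.12 and 0.34. For GATA3 the gap between the controls was as large as its shRNA difference of 0.60. ELF3 differed by -0.02 between the controls, with the groups overlapping. Within SUM149PT the mean level of AGR2 was highest with MCT1 shRNA at 3802 ± 191.5, followed by AZD3965 at 417.7 ± 65.6, DMSO at 399.7 ± 40.7 and scramble at 275.9 ± 22.5 (SD, n = 3 each), with AZD3965 and DMSO overlapping. EHF's order was AZD3965 (5609 ± 491) and DMSO (5694 ± 458), not apart beyond their spread, then scramble (555 ± 48.9) and MCT1 shRNA (227 ± 20.0).

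**Figure D3:**
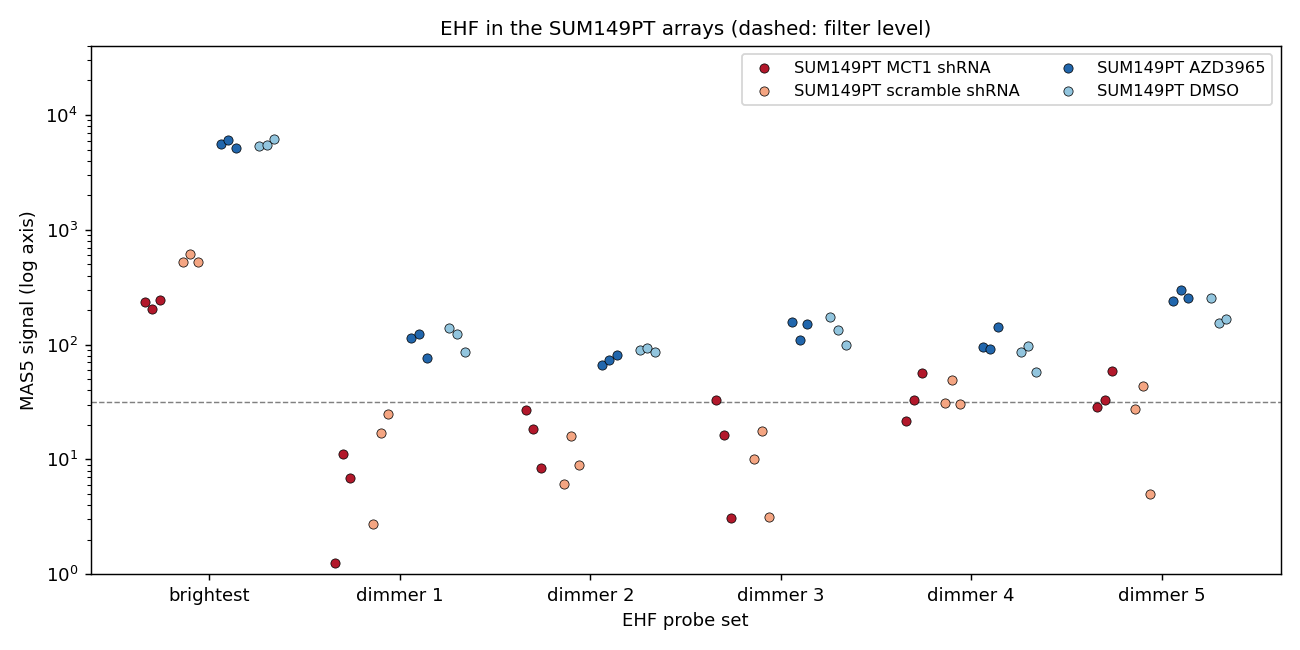
MAS5 signal on a log axis of the 6 EHF probe sets on the 12 SUM149PT arrays, coloured by group, with a dashed line at the filter level of 31.7. At every probe set the scramble arrays lie below the DMSO arrays, and only at the brightest are MCT1 shRNA and scramble arrays apart.

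With AZD3965, none of the 9 genes passed the test in any line. In SUM149PT cells AGR2 read 353, 484 and 416 with AZD3965, against 374, 447 and 379 with DMSO. The arrays overlapped, and the difference was 0.05 with a 95% confidence interval from -0.28 to 0.39. EHF differed by -0.02 (95% interval -0.50 to 0.46) and GATA3 by -0.10 (-0.35 to 0.16). In SUM149PT limma called 0 of the 9 genes, against 0.0283% of all genes. The smallest adjusted p was 0.517, for TFF3, and 0 genes of the list had an unadjusted p under 0.05. SPDEF read 134, 161 and 156 with AZD3965, against 93.1, 110 and 103 with DMSO. Its groups did not overlap, as for 12.6% of all genes in that direction, and its difference of 0.49 did not pass (adjusted p = 0.615). SPDEF's dimmer tested probe sets differed by 0.74, -0.68 and 0.95, only that at 0.74 without overlap. A dimmer GATA3 probe set, at -0.45, lay below DMSO without overlap, and the other, at 0.02, overlapped. None of these passed. Under the filter, and so untested, the brighter ELF5 probe set (0.87) and the dimmer FOXA1 probe set (0.55) lay above DMSO without overlap. An EHF probe set under it (-0.23) lay below DMSO without overlap.

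In HS578T cells 0 of 9 genes were called, against 0.304% of all genes, and 1 had an unadjusted p under 0.05. That was ELF3, at 10.4, 53.9 and 15.4 with AZD3965 against 38.7, 70.7 and 43.1 with DMSO. The arrays overlapped at signals around the filter level, and the difference was -0.76 ± 0.33 (SE, adjusted p = 0.511 in limma). TFF3 read 30.7 to 49.8 with AZD3965, below its 52.5 to 65.0 with DMSO without overlap, as 10.9% of all genes did (-0.36, adjusted p = 0.869). In SUM159PT cells 0 of 9 genes were called by limma, against 0% of all genes. There 0 of the list had an unadjusted p under 0.05, and the smallest adjusted p was 0.770. AGR2 there read 4.05, 4.40 and 2.80 with AZD3965, against 5.04, 8.53 and 8.02 with DMSO, all far under the filter level. The AGR2 groups did not overlap there, as for 6.35% of all genes in that direction, and the difference was -0.23 (95% interval -0.56 to 0.11).

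Averaged over lines, AZD3965 differences ran from -0.24 (ELF3) to 0.13 (FOXA1), and 0 of 9 genes were called by limma, against 0.0283% of all genes, with 0 at an unadjusted p under 0.05. The average AGR2 difference was -0.02 (95% interval -0.21 to 0.17). AGR2 averaged 4.38 with DMSO and 6.21 with AZD3965 in HS578T, and 7.20 and 3.75 in SUM159PT. EHF averaged 5.15 and 2.81 in HS578T, and 27.3 and 23.0 in SUM159PT, so both genes lay under the filter level there. At such signals the offset shrinks differences. Neither the average nor the F test below can therefore settle an effect on AGR2 or EHF in those lines. The F test for an AZD3965 effect that differs between lines called 0 of 9 genes, against 0.12% of all genes, with 0 at an unadjusted p under 0.05 and a smallest adjusted p of 0.601 for TFF3.

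The shRNA effect and the AZD3965 effect in SUM149PT were set against each other directly. GATA3 had a higher shRNA effect by 0.70 ± 0.17 (SE, adjusted p = 0.0123 in limma) and EHF a lower one by -1.21 ± 0.33 (SE, adjusted p = 0.0212), so 2 of 8 genes were called, against 9.52% of all genes, 4.58% higher and 4.94% lower. AGR2's effects differed by 3.66 ± 0.23 (SE), given without a test. The EHF call was lost when any of 3 arrays was left out (adjusted p = 0.0555 without DMSO array 1, 0.0578 without AZD3965 array 2 and 0.0522 without MCT1 shRNA array 2). The 2 effects have different controls and agents.

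**Figure D4:**
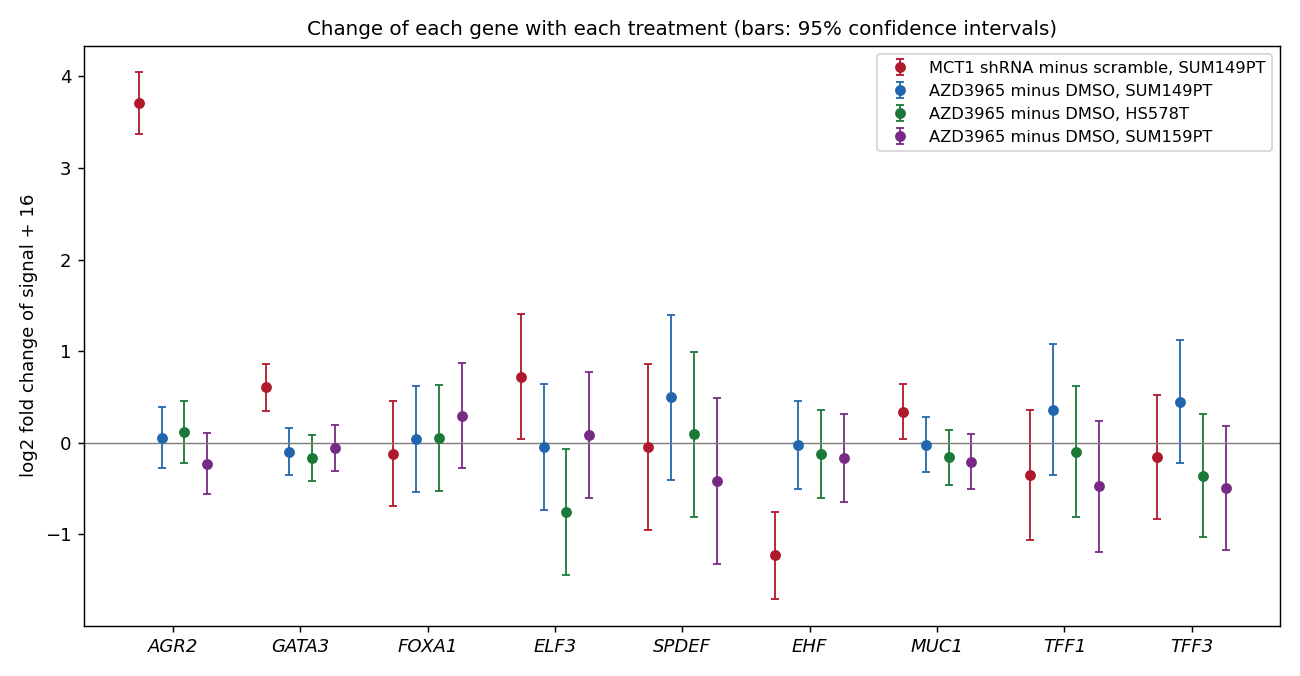
Log2 fold change of signal + 16, with 95% confidence intervals, of the 9 tested genes for MCT1 shRNA minus scramble and for AZD3965 minus DMSO in each line. AGR2, chosen by this difference, stands at 3.71 with the shRNA. EHF at -1.23 has a shRNA interval below 0 and GATA3 at 0.60, ELF3 at 0.72 and MUC1 at 0.34 have shRNA intervals above 0, those of ELF3 and MUC1 not called after adjustment, while of the AZD3965 intervals only ELF3 in HS578T excludes 0 before adjustment.

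Under DMSO, the brightest AGR2 probe set separated SUM149PT from the other lines. It read 374, 447 and 379 in SUM149PT, against 4.22, 3 and 5.92 in HS578T and 5.04, 8.53 and 8.02 in SUM159PT. HS578T and SUM159PT lay under the filter level and under the offset of 16, so the offset sets the size of the difference: SUM149PT minus HS578T was 4.35 ± 0.16 (SE), but 6.25 when 1 was added in place of 16, and 2.76 when 64 was added. SUM149PT minus SUM159PT was 4.16 ± 0.16 (SE). AGR2 and EHF reached the filter only through SUM149PT, so their differences from that line are given without a test.

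With AGR2 and EHF set aside, 3 of 7 genes were higher and none lower in SUM149PT minus HS578T, where 64.2% of all genes were called, 33.8% higher and 30.4% lower. Against SUM159PT, 4 of 7 were higher and none lower, where 59.4% were called, 30% higher and 29.3% lower. EHF read 5358, 5510 and 6215 in SUM149PT, against 13.1, 1.41 and 0.92 in HS578T and 24.5, 41.3 and 15.97 in SUM159PT. Its differences of 8.12 and 7.08 also depend on the offset.

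ELF3 read 300, 280 and 290 in SUM149PT, against 38.7, 70.7 and 43.1 in HS578T and 10.1, 63.4 and 50.0 in SUM159PT. SUM149PT lay above both lines without overlap, by 2.22 ± 0.33 and 2.57 ± 0.33 (SE). FOXA1 was also higher in SUM149PT, by 1.19 ± 0.28 against HS578T and 1.74 ± 0.28 against SUM159PT. FOXA1 read 194, 273 and 172 in SUM149PT, 56.4, 67.9 and 141 in HS578T and 41.4, 51.9 and 62.3 in SUM159PT.

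GATA3 and MUC1 were graded rather than confined to SUM149PT. GATA3 read 1383, 1172 and 1122 in SUM149PT, 1023, 941 and 850 in HS578T and 371, 344 and 421 in SUM159PT. SUM149PT exceeded HS578T by 0.38 ± 0.12 (SE, adjusted p = 0.00937 in limma), a call lost without HS578T DMSO array 3 (adjusted p = 0.0529) or without SUM149PT DMSO array 1 (adjusted p = 0.0657), and HS578T exceeded SUM159PT by 1.28 ± 0.12 (SE). MUC1 read 750, 810 and 757 in SUM149PT, 719, 616 and 600 in HS578T and 111, 109 and 149 in SUM159PT. HS578T exceeded SUM159PT by 2.26 ± 0.15 (SE), while SUM149PT minus HS578T, at 0.26, did not pass (adjusted p = 0.128).

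In HS578T minus SUM159PT, GATA3 and MUC1 were higher, where 58% of all genes were called, 27.3% higher and 30.7% lower. EHF read lower (-1.04 ± 0.23, SE), but it had reached the filter only through SUM149PT and is set aside here too. That EHF difference lies between signals around or under the filter level, with HS578T under the offset of 16, so the offset sets its size. The difference was -0.06 with the mean of the 6 probe sets (adjusted p = 0.790). AGR2 did not pass in that contrast (adjusted p = 0.347). SPDEF, TFF1 and TFF3 were called in no contrast here. SPDEF ran from 13.5 to 161 over all arrays, TFF1 from 17.4 to 97.4 and TFF3 from 9.40 to 65.0. ELF5's brighter probe set never exceeded 41.7.

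Over the 24 arrays, the genes with the highest Pearson correlation with AGR2 were ABCA12, a lipid carrier of the epidermis (r = 0.980), SELENOS, a selenoprotein of the endoplasmic reticulum (0.974), GPR137B (0.972), BHLHA15, a transcription factor of secretory cells (0.969), EPC1 (0.966) and CYB5D1 (0.963). BHLHA15 averaged 1106 ± 65.8 with MCT1 shRNA and 353 ± 26.8 with scramble (SD, n = 3 each), and 315 ± 45.2 in SUM149PT under DMSO. Within the list, r was 0.929 for ELF3, 0.841 for GATA3, 0.710 for EHF, 0.600 for FOXA1, 0.492 for MUC1, 0.118 for SPDEF, 0.015 for TFF1 and -0.36 for TFF3. Over the 18 arrays of the inhibitor experiment it was 0.989 for EHF and 0.925 for ELF3, and the leading genes GARIN5A, KRT19, PAX8-AS1, RAB25, GOLGA7B and CDH3 stood at 0.997 to 0.999. All these correlations describe arrays that share 3 lines and a few treatments, and carry no test.

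AGR2's own enzyme family was followed within a list of protein disulfide isomerases and partners, which also holds transcription factors such as XBP1 and CREB3L2. With MCT1 shRNA, 5 of the list's 21 tested genes rose, 3 fell and 13 did not pass. Of all genes 14.9% were called, 7.22% higher and 7.64% lower. XBP1 and CREB3L2 are among the 5, so these counts are not those of the enzymes alone. The list's median log2 change was 0.09, against -0.003 over all genes. DNAJC10, a disulfide reductase of the endoplasmic reticulum, rose to 4993 ± 191 in MCT1 shRNA arrays against 3140 ± 266 in scramble arrays (SD, n = 3 each), a log2 change of 0.67 (adjusted p = 5.68e-06 in limma). XBP1, a transcription factor of the unfolded protein response, rose by 0.70 (adjusted p = 3.28e-05), CREB3L2, a factor of secretory capacity, by 0.83 (adjusted p = 3.15e-04) and PDIA3 by 0.24 (adjusted p = 0.00699). PDIA3 did not pass after median centring (0.13, adjusted p = 0.472). The membrane-bound isomerases TMX1 and TMX4 fell by 0.59 and 0.40, and the isomerase PDIA4 fell by 0.32 (adjusted p = 9.38e-05, 0.00223 and 0.00653). Without scramble array 3 the list's counts were 8 higher and 3 lower, against 12.3% of all genes called. AGR3, the nearest relative of AGR2, stayed under the filter, with means of 20.9 in MCT1 shRNA and 11.02 in scramble arrays.

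Of 20 tested luminal hormone receptors and transcription factors outside the 10 genes, 4 rose, 1 fell and 15 did not pass, where 7.22% of all genes rose and 7.64% fell, and the median was 0.05. LMO4 rose by 0.52, KDM5B by 0.49, BHLHE41 by 0.60 and SOX9, a progenitor factor, by 0.35, and ZNF703 fell by 0.75 (limma adjusted p from 0.00168 to 0.0193). SOX9 did not pass after median centring (0.24, adjusted p = 0.136), nor without MCT1 shRNA array 2 (adjusted p = 0.0767) or scramble array 1 (0.0963), and ZNF703 did not without scramble array 1 (0.0512). With scramble array 3 left out, 4 rose and 2 fell. The oestrogen receptor gene ESR1 was dim, averaging 172 with MCT1 shRNA and 146 with scramble, and PGR was under the filter.

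Of 24 tested mucins, trefoil factors and enzymes of O-glycosylation, none rose and 2 fell, where 7.22% of all genes rose and 7.64% fell, and the median was -0.06. The 2 were the glycosyltransferases GALNT7 (-0.31, adjusted p = 0.00372 in limma) and GCNT1 (-0.48, adjusted p = 0.00894), GCNT1 not passing without scramble array 1 (0.0699). With scramble array 3 left out, 1 rose and 2 fell. The gel-forming mucin MUC5B averaged 3.99 with MCT1 shRNA and 2.80 with scramble.

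Of 26 tested genes listed as secreted and surface products of luminal cells, 4 rose and none fell, where 14.9% of all genes were called, 7.22% higher, and the median was 0.20. Counted both ways, the list's share of calls was near that of all genes. All 4 calls were upward, and this lean was not tested. Under this name the list also holds keratins, which are neither secreted nor at the surface. TSPAN1, a tetraspanin, rose to 836 ± 64.3 in MCT1 shRNA arrays against 261 ± 60.7 in scramble arrays, a change of 1.64 (adjusted p = 6.63e-04 in limma). KRT19, a luminal keratin, rose to 12870 ± 272 against 6097 ± 820 with scramble (1.09, adjusted p = 1.17e-07), CLU by 0.89 and KRT8 by 0.64. KRT8 did not pass without scramble array 3 (0.33, adjusted p = 0.0798) or after median centring (0.53, adjusted p = 0.0579). The summed signal of 5 epithelial markers, KRT8 and KRT19 among them, was 57160 to 61920 in MCT1 shRNA arrays and 43760 to 48520 in scramble arrays, and its part in these results was not tested.

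Among 18 tested ETS factors outside the 10 genes, none rose, 4 fell and 14 did not pass, where 7.22% of all genes rose and 7.64% fell, and the median was -0.20. ELK3, a repressor of the ternary complex group, fell to 1972 ± 132 in MCT1 shRNA arrays against 3647 ± 304 in scramble arrays (SD, n = 3 each), by 0.88 on the log2 scale (adjusted p = 7.71e-07 in limma). ETV1 fell by 0.81, ETV5 by 0.31 and FLI1 by 0.95. FLI1 did not pass without scramble array 3 (-0.75, adjusted p = 0.111) or MCT1 shRNA array 2 (-0.76, adjusted p = 0.114), nor ETV5 without scramble array 1 (adjusted p = 0.0808) or MCT1 shRNA array 1 (0.0827). With scramble array 3 left out, 3 of the 18 fell. With AZD3965, limma called 0 genes of the 5 lists in any line or on average, while with array weights a list had at most 1 call each way, and without AZD3965 array 1 of SUM149PT 3 ETS factors were lower there. When only the 2 shRNA groups were fitted, 4 of the lists had fewer calls, at 3 disulfide isomerase genes higher, 2 luminal factors higher and none lower, no mucin gene and 1 ETS factor lower. For this fit, the array weights and the fit without AZD3965 array 1, the share of all genes called was not counted. A change in list calls there cannot be told from a change among all genes.

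**Figure D5:**
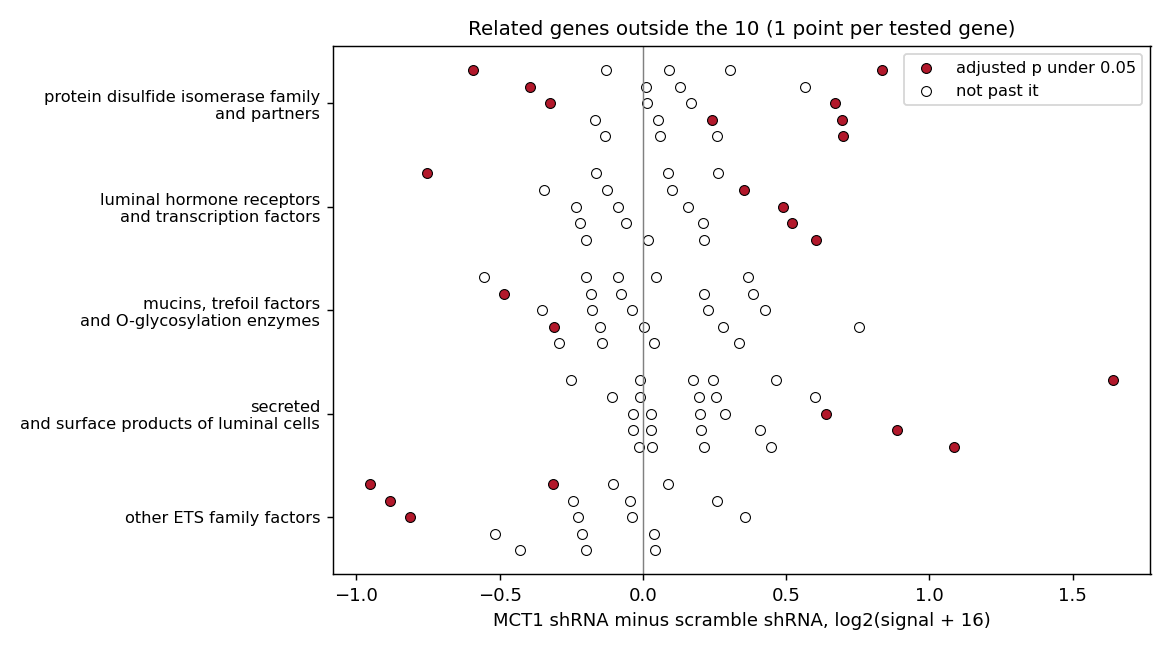
Difference of MCT1 shRNA minus scramble shRNA on the log2(signal + 16) scale for each tested gene of 5 related lists, filled where the adjusted p of limma is under 0.05. Calls run both ways in the disulfide isomerase and luminal factor lists, only upward among secreted and surface products and only downward among the other ETS factors and the mucin list.

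Between lines under DMSO, the counts of the same lists stand against 33.8% of all genes higher and 30.4% lower in SUM149PT minus HS578T, and 30% higher and 29.3% lower in SUM149PT minus SUM159PT. Of the 26 secreted and surface products, 18 were higher in SUM149PT than in HS578T and 3 lower, with a median of 4.45, and 17 were higher and 3 lower than in SUM159PT, with a median of 2.85. KRT19 averaged 4278 ± 138 in SUM149PT, 1.48 ± 0.52 in HS578T and 1.83 ± 0.42 in SUM159PT (SD, n = 3 each). In the same order RAB25 averaged 1582, 4.57 and 4.07, and CDH1 8772, 4.26 and 3.53. Such genes reached the filter only through SUM149PT, as AGR2 and EHF did, so their calls here are no test. They were not set aside or counted apart in any of these lists. In the other lines their signals lay under the offset of 16, so the offset also bears on the medians. Of the luminal factors, 9 of 20 were higher and 8 lower in SUM149PT than in HS578T, and 13 higher and 5 lower than in SUM159PT. TFAP2C, a partner of the oestrogen receptor programme, averaged 4559 ± 210 in SUM149PT, 357.5 ± 17.0 in HS578T and 494.6 ± 25.7 in SUM159PT. The disulfide isomerase list of 21 had 9 higher and 6 lower against HS578T and 9 higher and 7 lower against SUM159PT, and XBP1 was lower in SUM149PT in both contrasts (-0.78 and -0.63).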

How the data were processed

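Total RNA from 24 samples was hybridised as biotin-labelled cRNA. Per the submitters' processing notes the authors used MAS5, version not given in the sources used here, and they deposited linear intensity values. The mean of each array, trimmed by 2% at both tails, came to 500.1, which is the authors' scaling, and nothing further was normalized. Of 54675 probe sets, 41097 carried 1 symbol, 1801 several and 11777 none. The level of the targeted gene is not reported here, so the knockdown was not checked.

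For each of 19775 genes the probe set of highest mean was kept, log2(signal + 16) taken, and 14141 genes tested whose mean reached 5.58 (a signal of 31.7), the level that 40% of probe sets lie under. A linear model of 8 group means was fitted with limma 3.58.1 in R 4.3.3 (eBayes with trend, 16 residual and 6.52 prior degrees of freedom), two-sided, with Benjamini-Hochberg adjustment. All 27128 probe sets over the filter were fitted separately. The number of arrays limits the precision.

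The 10 genes, the 5 lists and the tests were chosen with earlier results of these data known, and AGR2 for its rise with the shRNA. Named genes are the 10, up to 4 genes of smallest p each way per list and comparison among called genes without overlap of arrays (only some are given for the lines), and the 6 genes of highest correlation with AGR2. In simulated data with 200 of 14141 genes changed in the shRNA comparison, false calls made up 2.33%. Promoter sequences come from RefSeq (GRCh38.p14). Alternatives covered the offset, normalization, filter, probe set summary, samples fitted, array weights, replicate block and leaving out each array. Figures were drawn with matplotlib 3.10.9.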

Additional observations from a re-analysis of the deposited data

How the results depend on the processing

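Each alternative was run on every comparison. Of 200 recomputed counts of called genes among the 10, 194 stayed within 1.5 times the reported count. In the AZD3965 comparisons the reported count was 0 and stayed 0, so those counts say little on stability. The 6 counts that moved lay in the shRNA comparison and in the shRNA effect minus the AZD3965 effect. The 200 counts and the values below include AGR2 and EHF in contrasts of SUM149PT with the other lines. Both reached the filter only through SUM149PT, so their calls there are no sign of stability. With an offset of 1 the count was 1 in place of 2 for MCT1 shRNA minus scramble and 1 in place of 2 for the shRNA effect minus the AZD3965 effect, since EHF was not called (adjusted p = 0.126 and 0.344). With the mean of probe sets the second of these counts was also 1. Leaving out each array in turn gave 1 to 2 genes for that difference of effects. It gave 3 to 4 for HS578T minus SUM159PT with EHF counted in. For SUM149PT minus HS578T it gave 4 to 5, but AGR2 and EHF are counted in there without standing as tests. Of 1770 recomputed values of the 10 genes, 1745 kept their direction and their side of the threshold where called, 10 lost a call, 11 gained one, 4 of AGR2 moved by more than the spread between arrays and 0 reversed, while 72 values that were not called changed sign. The AGR2 shRNA difference was 3.51 with an offset of 64 and 2.91 with the mean of probe sets, and its difference from the AZD3965 effect was 3.46 and 2.79. ELF3 passed in the shRNA comparison with an offset of 64 (adjusted p = 0.0150) and with the mean of probe sets (0.00292). MUC1 passed there with array weights (0.0413), and in SUM149PT minus HS578T after quantile normalization (0.0419) and median centring (0.0395). Among list genes, TMX4 reversed in SUM149PT minus SUM159PT with the mean of probe sets (0.29, adjusted p = 0.0244). ETV5, FLI1 and ZNF703 were not called in the shRNA comparison with the mean of probe sets (adjusted p = 0.570, 0.945 and 0.377). In that comparison 7 secreted and surface products were higher with an offset of 64, 8 disulfide isomerase genes and 2 mucin genes with array weights, and 1 ETS factor without scramble array 1 or without scramble array 2. The share of all genes called under these settings was not counted, so these list counts have no background beside them. Centring arrays on their median moved the median of all genes to -0.12 in the shRNA comparison, 0.14 for AZD3965 in HS578T, 0.12 for SUM149PT minus HS578T and -0.12 for HS578T minus SUM159PT. After it 23.1% of calls in the shRNA comparison were higher, against 48.6% before it, with 97.1% against 69.8% for AZD3965 in HS578T and 50% against 75% for AZD3965 in SUM149PT. The directions of the called genes among the 10 were the same after it. Replicate numbers did not pair the arrays (correlations of deviations from -0.13 to 0.23), and with the replicate block 2 genes were called in the shRNA comparison, as without it, EHF at adjusted p = 8.28e-04 and GATA3 at 0.0109. The block changed no call among the 10 genes, and SOX9 was not called in the shRNA comparison under it (adjusted p = 0.0703). The cause of the changes under the mean of probe sets and array weights was not tested.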
